A study of Drosophila melanogaster with 6 samples.

Results

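Reactive oxygen species are made and removed by a small set of enzymes, and 10 genes of this set were described here in the blood cells of the fly. They encode the superoxide dismutases Sod1, Sod2 and Sod3, the catalase Cat, the thioredoxin Trx-2 and its reductase Trxr-1, the oxidases Duox and Nox, and the regulators Keap1 and cnc. The genes were found by name in the count table, and all 10 matched 1 of its 13395 genes. The cells were hemocytes of Drosophila melanogaster with the genotype Hml-GAL4.delta, UAS-GFP, in which GFP is expressed only where the hemolectin (Hml) driver is active. GFP-positive cells were sorted from white prepupae (3 libraries) and from L3 wandering larvae (3 libraries), and both stages carried the same transgenes. Unstranded mRNA libraries were sequenced to ask how macrophages change when they become motile at the onset of metamorphosis.

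Superoxide dismutases turn superoxide into hydrogen peroxide, which catalase and peroxiredoxins then break down. Thioredoxin keeps peroxiredoxins and other proteins reduced, and thioredoxin reductase recharges it with electrons from NADPH. Flies have no glutathione reductase, so that thioredoxin reductase also maintains their glutathione. Duox and Nox work in the opposite sense and make reactive oxygen species on purpose, for example in epithelial defence. Keap1 binds the longest protein form of cnc, CncC, the fly counterpart of mammalian Nrf2, and keeps it from activating detoxification genes. In the fly, hemocytes and their precursors are known to respond to reactive oxygen species.

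The count totals lay between 19228352 and 22110219 in prepupal and between 21038176 and 25958543 in larval libraries. Of the 10 genes, 7 passed the filter on low counts and were tested with edgeR, as were 7914 genes in all. Sod3, Duox and Nox did not pass. A gene was called at a Benjamini-Hochberg adjusted p (FDR) below 0.05 over all tested genes, and log2 fold changes are prepupal over larval. Levels are given as CPM, counts per 1000000 counts of the library after TMM scaling. No source names separate cultures or animals for the replicates, so that p-values measure only the spread between these libraries. Bulk counts cannot tell fewer cells of a type from less RNA per cell. Markers of plasmatocytes, the macrophages of the fly, moved with the stage: 7 of 8 were lower and 1 was higher in prepupae, and their summed level was 4163 to 6713 CPM in prepupal and 16464 to 24900 CPM in larval libraries. Hml itself was at 149 ± 87.6 CPM in prepupal and 4909 ± 1592 CPM in larval hemocytes (SD, n = 3 each). The 4 crystal cell markers were all lower, with a sum of 555 to 1471 CPM against 2048 to 3209 CPM, and of the 4 tested lamellocyte markers 1 was higher and 1 lower (sum 520.2 to 642 against 999.9 to 1398 CPM). The lower lamellocyte sum came from cher (18.4 against 771 CPM), while PPO3 was higher (56.7 against 23.2 CPM) and mys was not called (514 against 436 CPM), genes named after their values were seen. Of 6 tested fat body genes 2 were higher and 1 lower, with a sum of 50.1 to 58.1 CPM in prepupal and 40.5 to 58.1 CPM in larval libraries. Salivary gland genes summed to 6.52 to 9.81 CPM in prepupal and 6.39 to 9.01 CPM in larval libraries, and muscle genes to 11.4 to 14.8 and 10.7 to 13.8 CPM. The defining markers lz, atilla, Lsp2, Sgs3 and Mhc averaged 0.383, 0.221, 1.06, 2.76 and 2.04 CPM in prepupal and 2.10, 0.480, 0.659, 2.95 and 1.90 CPM in larval libraries. The part of these marker shifts in the results below was not tested.

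Among the 7 tested genes, 5 were called higher in prepupal hemocytes (Sod1, Sod2, Cat, Trx-2, Trxr-1) and 1 was called lower (cnc), while Keap1 was not called. These counts stand against a wide stage difference, in which 53.9% of all tested genes were called. Of all tested genes, 26.6% were called higher and 27.3% lower. A share of 6 of 7 among the genes described here is to be read against that background. The levels of 6 of the 7 tested genes did not overlap between the stages, as was the case for 63.0% of all tested genes. Sod1 and cnc, 2 of the 7, were called and also differed 2-fold or more, as did 20.0% of all tested genes. Their median log2 fold change was 0.45, and that of all tested genes was -0.03. Together the 10 genes took 0.279%, 0.292% and 0.296% of the counts in the prepupal and 0.202%, 0.215% and 0.188% in the larval libraries, so that no prepupal library was as low as a larval one. Catalase alone made up 52.8% to 59.5% of these counts in prepupal and 48.4% to 53.5% in larval libraries.

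**Figure D1:**
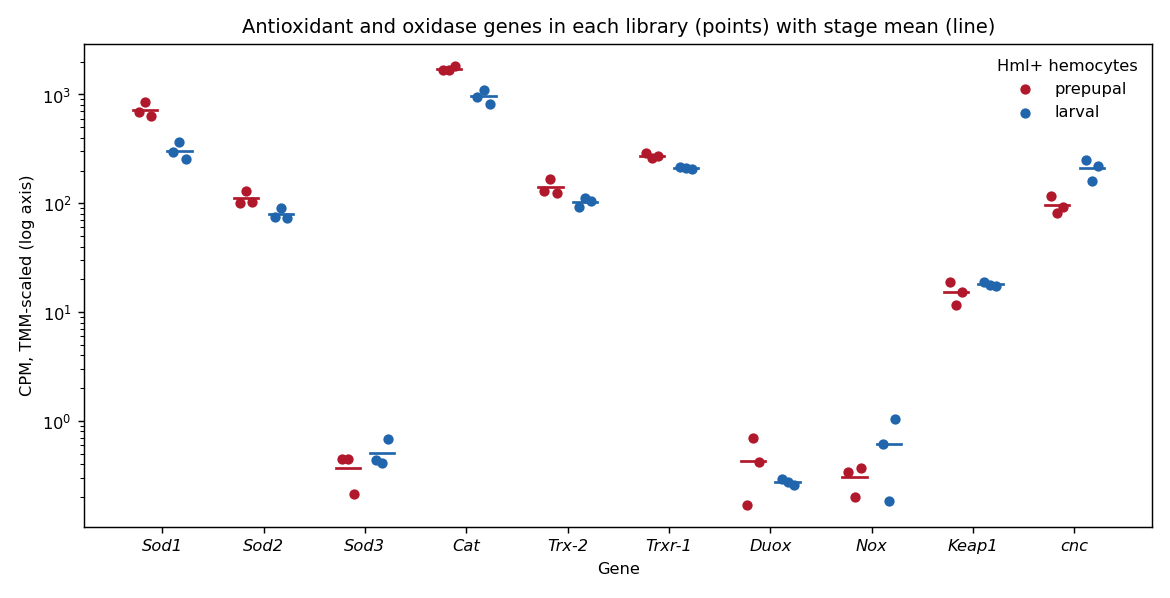
TMM-scaled CPM on a log axis for each gene in the 3 prepupal (red, left) and 3 larval (blue, right) libraries, with a line at the stage mean. Sod1, Sod2, Cat, Trx-2 and Trxr-1 lie higher in every prepupal library, cnc lies lower in every prepupal library, and Sod3, Duox and Nox stay near or below 1 CPM in both stages.

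The genes differed far more from each other than between the stages. Per exonic length, in RPKM (CPM per 1000 exonic bases), Sod1 and Cat led in both stages. Sod1 averaged 989.6 ± 157 RPKM in prepupal and 415 ± 78.3 RPKM in larval hemocytes, and Cat 868 ± 43.9 and 482 ± 69.7 RPKM (SD, n = 3 each). Their ranges overlapped within each stage, although Cat was above Sod1 in each of the 3 larval libraries. In the mean RPKM of a stage, both were above 97.7% or more of the tested genes. Sod2 (109.6 RPKM in prepupal, 77.9 RPKM in larval hemocytes), Trx-2 (103 and 75.5 RPKM) and Trxr-1 (87.0 and 67.3 RPKM) formed a middle group. Within it the ranges of Sod2 and Trx-2 overlapped in both stages, and those of Trx-2 and Trxr-1 overlapped in larvae and were set apart narrowly in prepupae (lowest Trx-2 library 91.9, highest Trxr-1 library 91.6 RPKM). The regulators followed with 10.6 RPKM in prepupal and 22.8 RPKM in larval hemocytes for cnc and 4.41 and 5.24 RPKM for Keap1, each separated from its neighbours in both stages. Sod3, Duox and Nox came last, at no more than 0.340 RPKM in any library. The exonic length of cnc joins the exons of 16 annotated transcripts, which lowers its RPKM relative to genes with 1 transcript.

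**Figure D2:**
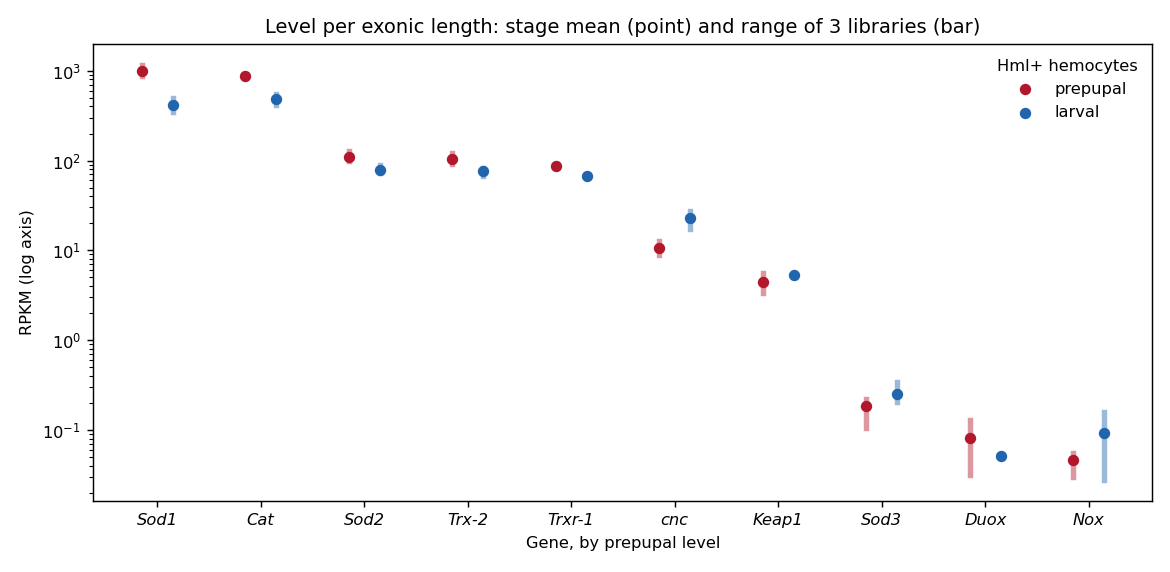
RPKM on a log axis for the 10 genes in order of their prepupal mean, with prepupal hemocytes in red (left) and larval hemocytes in blue (right), points at the mean and bars over the range of 3 libraries. The bars of some neighbouring genes overlap, such as those of Sod1 and Cat in both stages, while Sod3, Duox and Nox lie apart from the other 7 genes.

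Sod1 (FBgn0003462), the cytosolic copper and zinc enzyme, is a gene of 735 exonic bases at 11112281 to 11113740 of chromosome 3L, minus strand, in dm6. It had 12212, 17339 and 12154 counts in the prepupal and 8157, 8074 and 5886 counts in the larval libraries, or 686, 858 and 638 CPM against 296, 367 and 253 CPM. The stages did not overlap, and replicate 2 was the highest in both. The log2 fold change, 1.25 ± 0.17 (standard error, SE) at an FDR of 0.00028 in edgeR, corresponds to a 2.38-fold higher level in prepupae, larger than that of 94.7% of the tested genes when these are ranked by log2 fold change. Sod2 (FBgn0010213), the manganese enzyme of mitochondria, is at 16772785 to 16773915 of chromosome 2R, minus strand. Its levels were 101.3, 130.4 and 101.9 CPM in prepupal and 74.4, 89.8 and 73.2 CPM in larval libraries. The stages did not overlap, but larval replicate 2 came close to the lowest prepupal library. Its log2 fold change of 0.49 ± 0.14 (SE) had an FDR of 0.014 in edgeR, and this call was lost when the length trend described below was removed (0.23, FDR = 0.091) and without prepupal replicate 2 (0.36, FDR = 0.058) or larval replicate 1 (0.46, FDR = 0.055). Sod3 (FBgn0033631), the extracellular copper and zinc enzyme, is at 11380347 to 11384114 of chromosome 2R, minus strand, and had 8, 9 and 4 counts in prepupal and 12, 9 and 16 counts in larval libraries. The stages overlapped. The summed 21 counts in prepupae give 0.368 CPM (95% exact Poisson interval 0.228 to 0.563, counting error only) and the summed 37 counts in larvae 0.508 CPM (0.358 to 0.700), so that a difference was not detectable at this depth. Without the filter, edgeR gave Sod3 a log2 fold change of -0.47 (FDR = 0.61).

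Cat (FBgn0000261) on the plus strand of chromosome 3L, from 18822604 to 18828188, encodes the catalase that splits hydrogen peroxide into water and oxygen. It was the most abundant of the 10 genes by counts, with 29725, 34145 and 34886 counts in the prepupal and 26354, 24248 and 19186 counts in the larval libraries. In CPM these are 1671, 1689 and 1831 in prepupae and 957, 1101 and 823 in larvae, with all prepupal libraries above all larval libraries. Its log2 fold change of 0.85 ± 0.14 (SE) had an FDR of 0.00078 in edgeR, and its level in prepupae was 1.80-fold higher. It remained called under every alternative that was run except the requirement of a 2-fold change.

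Trx-2 (FBgn0040070), a small thiol protein that reduces disulfides, lies on the plus strand of chromosome 2L from 9613166 to 9616404. It had 129, 166 and 125 CPM in prepupal and 91.6, 111 and 105 CPM in larval libraries. Its stages did not overlap, and the gap between them was smaller than the spread among the prepupal libraries. Its log2 fold change of 0.45 ± 0.14 (SE) had an FDR of 0.020 in edgeR, and the call was lost without prepupal replicate 2 (0.31, FDR = 0.084) or larval replicate 1 (0.39, FDR = 0.084). Trxr-1 (FBgn0020653), the reductase that recharges thioredoxin, lies on the plus strand of chromosome X from 8242528 to 8248033. Its 288, 259 and 274 CPM in prepupal and 216, 212 and 208 CPM in larval libraries were tight within each stage and did not overlap. Its log2 fold change of 0.37 ± 0.10 (SE) had an FDR of 0.011 in edgeR, and its level in prepupae was 1.29-fold higher. Trxr-1 shares 435 exonic bases with sni on the opposite strand, a gene with 411 to 621 counts per library that was called higher as well (log2 fold change 0.50), while Trxr-1 had 4668 to 5943. The mitochondrial and cytosolic protein forms of Trxr-1 come from the same gene and were not separated. Scaling by total counts in place of TMM moved the median over all tested genes to -0.22 on the log2 scale, and Sod2, Trx-2 and Trxr-1 were then not called. Relative to that median they were at 0.52, 0.47 and 0.40, against 0.52, 0.48 and 0.40 with the TMM scaling. These scalings differ only by a factor per library, which subtracting the median largely removes. The closeness was therefore set in advance and is no support for the calls. Under scaling by total counts 33.2% of all called genes were higher in prepupae, against 49.4% with TMM.

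Duox (FBgn0283531, minus strand of chromosome 2L, 2815970 to 2830248), which carries a peroxidase-like domain beside its oxidase domain, had 3, 14 and 8 counts in prepupal and 8, 6 and 6 counts in larval libraries. The prepupal libraries lay on both sides of the larval ones. The summed 25 counts in prepupae give 0.438 CPM (95% exact Poisson interval 0.284 to 0.647, counting error only). The summed 20 counts in larvae give 0.275 CPM (0.168 to 0.424). Nox (FBgn0085428, plus strand of chromosome 2R, 16307269 to 16316485), a calcium-regulated oxidase, had 6, 4 and 7 counts in prepupal and 17, 4 and 24 counts in larval libraries. Larval replicate 2 was no higher than the prepupal libraries, so that the stages overlapped. The summed 17 counts of Nox in prepupae give 0.298 CPM (0.174 to 0.477, counting error only). The summed 45 counts in larvae give 0.618 CPM (0.451 to 0.826). These intervals overlap narrowly, which does not show equal levels, and they leave out the spread between libraries. Without the filter, edgeR gave log2 fold changes of 0.63 (FDR = 0.53) for Duox and -1.02 (FDR = 0.28) for Nox, and neither was called. Nox shares 173 exonic bases with CG8060 on the opposite strand. That gene was called lower in prepupae (8.33 ± 1.78 against 16.0 ± 1.02 CPM, SD, n = 3 each), and the libraries cannot assign reads of the shared stretch to a strand. Per length both oxidases were at or below 0.156 RPKM in every library. Sgs3, a salivary gland glue gene that hemocytes are not known to use, lay above both with 2.08 to 3.12 RPKM in prepupal and 1.83 to 3.37 RPKM in larval libraries, as did the muscle myosin gene Mhc with 0.213 to 0.232 and 0.170 to 0.270 RPKM.

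Expression of cnc (FBgn0262975, minus strand of chromosome 3R, 23185580 to 23226711), which encodes the transcription factor CncC and shorter forms, was lower in prepupae. It had 2092, 1657 and 1752 counts in prepupal and 6880, 3501 and 5089 counts in larval libraries, or 118, 82.0 and 91.9 CPM against 249.9, 159 and 218 CPM. The stages did not overlap, and larval replicate 2 was nearest to the prepupal libraries. This amounts to a 2.15-fold lower level in prepupae, from a log2 fold change of -1.11 ± 0.19 (SE) at an FDR of 0.00099 in edgeR. Counts per gene do not separate CncC from the shorter forms. On the opposite strand, cnc shares 63 exonic bases with Irk1, which was called higher in prepupae, the other direction (log2 fold change 1.80). Keap1 (FBgn0038475, minus strand of chromosome 3R, 17073942 to 17079945), the inhibitor of CncC, had 19.1, 11.5 and 15.1 CPM in prepupal and 18.9, 17.8 and 17.5 CPM in larval libraries. The larval libraries were within the range of the prepupal ones. Its log2 fold change was -0.25 with a 95% interval from -0.66 to 0.16 (FDR = 0.27, edgeR), an interval that holds 0.

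The comparison depends in part on transcript length. Longer genes tended to be lower in prepupae, with a Spearman correlation of -0.40 between exonic length and log2 fold change over 7873 tested genes, which share libraries and are not independent. The exonic lengths run from 735 bases for Sod1 to 9178 for cnc among the tested genes described here. With the trend of each library over length removed, Sod1 was at 0.83, Cat at 0.93, Trx-2 at 0.33 and Trxr-1 at 0.63, all still called higher. The value of cnc shrank to -0.45 (FDR = 0.0056, edgeR) and stayed called, and Keap1 changed sign to 0.05 (FDR = 0.83). Sod1 and cnc, which differed 2-fold or more with the trend left in, then fell short of 2-fold. What the trend stems from was not tested.

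**Figure D3:**
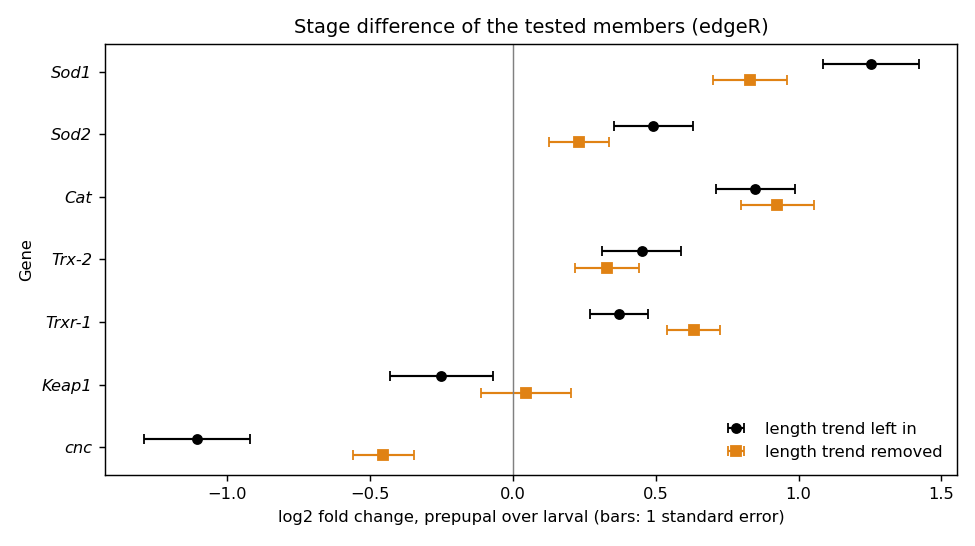
Log2 fold change (prepupal over larval, bars of 1 standard error) of the 7 tested genes, with the length trend left in (black circles) and removed (orange squares). Cat and Trxr-1 are as high or higher without the trend, Sod1 and cnc move towards 0 but stay called, and Sod2 loses its call.

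Ratios of counts between these genes within a library do not depend on library scaling. The pairs were chosen after their values were seen and carry no test. Sod1 had 6.77, 6.58 and 6.26 times the counts of Sod2 in prepupal and 3.98, 4.08 and 3.45 times in larval libraries. The ratio was higher in every prepupal library. Cat had 5.79, 6.51 and 6.68 times the counts of Trxr-1 in prepupal and 4.43, 5.19 and 3.97 times in larval libraries, again without overlap. Relative to Sod1, Cat was lower in prepupae, with 2.43, 1.97 and 2.87 against 3.23, 3.003 and 3.26 in larvae. These ratios carry the length trend, and with it removed Cat (0.93) was no longer below Sod1 (0.83) in log2 fold change. Cat then stayed above Trxr-1 (0.63), and Sod1 above Sod2 (0.23), both by less than with the trend left in. The ratio of cnc to its inhibitor Keap1 was 6.17, 7.14 and 6.08 in prepupal and 13.3, 8.91 and 12.5 in larval libraries, and did not overlap. With the length trend removed, cnc (-0.45) remained below Keap1 (0.05) in log2 fold change, by less than with the trend left in. The ratio of Trxr-1 to its substrate Trx-2 overlapped between the stages, at 2.00 ± 0.379 in prepupae and 2.08 ± 0.241 in larvae (SD, n = 3 each).

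**Figure D4:**
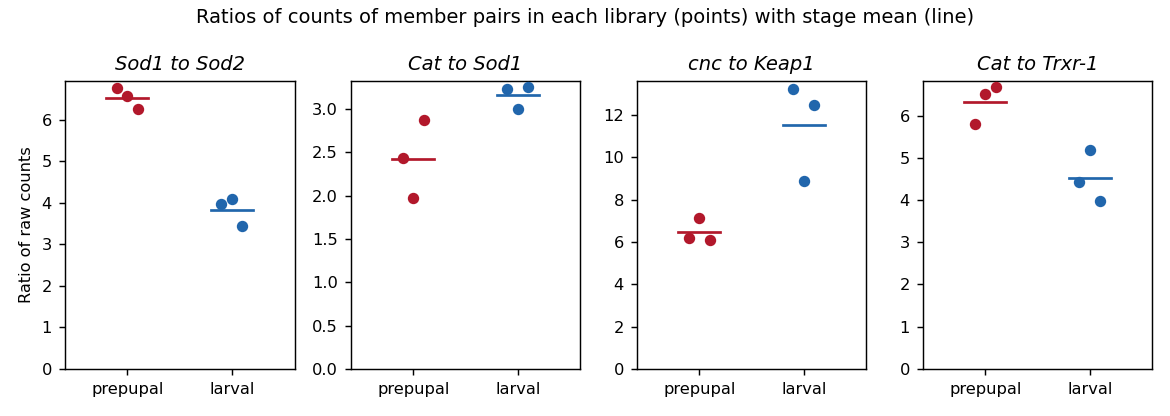
Ratio of raw counts for 4 pairs of genes in each prepupal (red, left) and larval (blue, right) library, with a line at the stage mean and axes from 0. The ratios of Sod1 to Sod2 and of Cat to Trxr-1 are higher in every prepupal library, and those of Cat to Sod1 and of cnc to Keap1 are lower in every prepupal library. Raw ratios carry the length trend, and without it the order of the Cat and Sod1 fold changes turns.

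Around these genes, 9 lists held 85 further genes of the antioxidant system, of which 80 were matched and 58 tested. In prepupae 23 were called higher and 12 lower, or 60.3% of those tested against 53.9% of all tested genes, with a median log2 fold change of 0.25. With the replicate numbers as a block 25 were higher and 15 lower, since Prx6005 (0.32) and Mgstl (0.25) became called higher and Men (-0.42), Cul3 (-0.30) and ref(2)P (-0.41) became called lower. Of 8 peroxiredoxin genes, which encode thiol peroxidases and the repair enzyme Srx, 4 were higher and 1 lower. Prx2540-2 had 66.7 ± 12.2 CPM in prepupal and 17.2 ± 8.36 CPM in larval hemocytes (SD, n = 3 each). Its log2 fold change was 1.96 ± 0.31 (SE), and those of Prx2540-1 and CG12896 were 2.10 and 1.92. These 3 genes are close copies of each other and could share reads. Jafrac1, a cytosolic peroxiredoxin, fell to 32.9 ± 1.86 CPM in prepupal hemocytes, against 73.4 ± 31.1 CPM in larval hemocytes (log2 fold change -1.16, FDR = 0.0036, edgeR). Of the 4 tested thioredoxin and glutaredoxin genes, 3 were higher, namely CG8993 (0.83), Txl (0.61) and CG3719 (0.51), the last of which lost its call with the length trend removed (0.15), with total counts, and without prepupal replicate 2 or 3 or larval replicate 1. Trxr-2, the other thioredoxin reductase gene, had 0 counts in every library, and a floor of 3 counts per library corresponds to at most 0.169 CPM in prepupal and 0.136 CPM in larval libraries. It is named for this value.

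The genes for the subunits of glutamate-cysteine ligase, the first enzyme of glutathione synthesis, went apart. The modifier subunit gene Gclm rose (74.7 ± 12.9 CPM in prepupal, 33.9 ± 4.29 CPM in larval hemocytes, SD, n = 3 each, log2 fold change 1.14, FDR = 0.00032, edgeR). The catalytic subunit gene Gclc was called lower (-0.77, FDR = 0.025, edgeR), a call that was lost with the length trend removed (-0.37) and without prepupal replicate 1 or 2 or larval replicate 3. Among 25 tested glutathione S-transferase genes, whose enzymes couple glutathione to reactive compounds, 7 were higher and 5 lower, with a median log2 fold change of 0.03. The number of lower calls was 3 without prepupal replicate 2 or larval replicate 1, and with the length trend removed 7 were higher and 8 lower. GstS1 (1.24), GstO3 (1.19) and GstE11 (1.12) rose most of those above 5 CPM. GstD1, often used in the fly as a reporter of CncC activity and named here after its value was seen, was the most abundant of the list. It was at 3102, 2566 and 2417 CPM in prepupal and 1435, 1473 and 998.7 CPM in larval libraries (log2 fold change 1.05 ± 0.18, SE, and FDR = 0.00097 by edgeR). GstE6 (-2.61), GstE1 (-1.50) and GstT4 (-0.47) were lower, and GstT4 lost its call with DESeq2 and when any library other than prepupal replicate 3 was left out. Neighbouring members of this family are similar in sequence, and reads could be shared between them.

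Of 5 enzymes that make NADPH, the isocitrate dehydrogenase gene Idh was higher (639 ± 18.7 CPM in prepupal, 426 ± 28.7 CPM in larval hemocytes, SD, n = 3 each, log2 fold change 0.58). The malic enzyme gene Men-b was lower (-1.57), as was Zw, the glucose-6-phosphate dehydrogenase gene (-0.75, FDR = 0.019, edgeR), which was not called without prepupal replicate 2 or 3 or larval replicate 1 or 3. Ccs, the chaperone that loads copper into Sod1, was higher (0.80), like Sod1. Among the oxidase partners and heme peroxidases, mol, which encodes the maturation factor of Duox, was higher at a low level, with 8.37, 6.33 and 4.198 CPM in prepupal and 2.07, 1.59 and 2.06 CPM in larval libraries (log2 fold change 1.72, standard error 0.30). It was named after its value was seen, being below 5 CPM on average. The immune-regulated catalase gene Irc (-1.36) and the peroxidasin gene Pxn (-1.63) were lower, and Pxn is also one of the plasmatocyte markers. Partners of Keap1 and cnc were mixed. The small Maf gene maf-S, whose protein binds DNA together with CncC, rose (59.2 ± 11.1 CPM in prepupal, 33.6 ± 3.79 CPM in larval hemocytes, SD, n = 3 each, log2 fold change 0.82), as did the ubiquitin ligase subunit gene Roc1a (0.45), which lost its call with total counts. Cul3, the scaffold of the ligase that Keap1 recruits, was not called, at a log2 fold change of -0.30 (FDR = 0.051 by edgeR). It was called lower with the block, with total counts (-0.50), with upper-quartile scaling and without larval replicate 2. Its sign turned with the length trend removed (0.17), and it is named after its value was seen. Of the other stress genes, the methionine sulfoxide reductase genes Eip71CD and SelR rose. Eip71CD, first described as ecdysone-induced, had 1003, 1465 and 816.9 CPM in prepupal and 140.6, 223 and 80.3 CPM in larval libraries (log2 fold change 2.89 ± 0.35, SE, and FDR = 0.00017 by edgeR), and SelR had a log2 fold change of 0.90. The Parkinson's disease gene homolog dj-1beta was higher (0.77), and foxo, a transcription factor of stress and insulin signalling, was lower (-0.79).

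**Figure D5:**
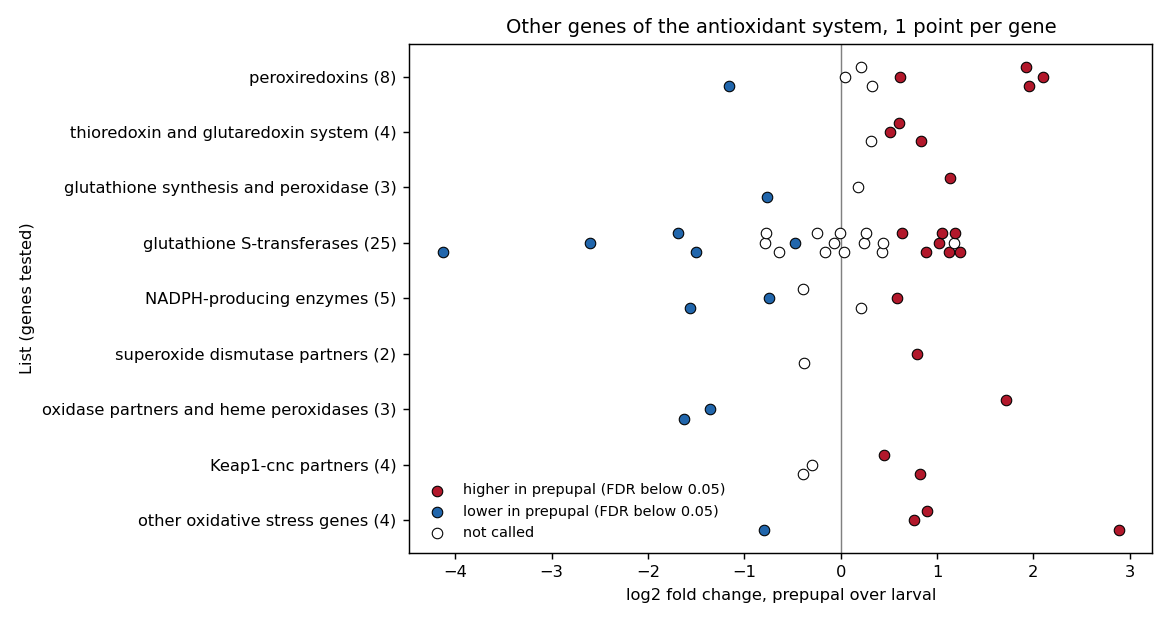
Log2 fold change (prepupal over larval) of the 58 tested genes of the 9 further lists, 1 point per gene, in red if called higher, blue if called lower and white if not called at an FDR below 0.05. Peroxiredoxins, thioredoxins and the small list of other stress genes lie mostly to the right of 0, while glutathione S-transferases spread to both sides.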

How the data were processed

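Single reads of 50 bp from unstranded TruSeq libraries of sorted hemocytes were trimmed with trimmomatic and aligned with STAR to dm6 (BDGP6) with an Ensembl annotation. The authors deposited raw counts per gene for each library, whole numbers with no normalization. The submitters' processing notes name featureCounts, whose settings the sources used here do not give. The authors compared groups with DESeq2, and those comparisons were not used.

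Stages were compared by the quasi-likelihood test of edgeR 4.0.16 (R 4.3.3) without covariates, on genes kept by filterByExpr (minimum count 10) and scaled by TMM (Benjamini-Hochberg adjustment over all tested genes, FDR below 0.05). A standard error is the log2 fold change divided by the square root of F. Ensembl 115, on the same assembly, gave exonic lengths and overlaps. It shares 13332 genes with the table, 99.7% of them at the same coordinates. The length trend was a loess fit (span 0.5) per library, given to edgeR as an offset. The replicate numbers of the stages were taken as pairs only in the alternative with a replicate block. Prepupal and larval libraries of the same number deviated together from their stage (correlations of 0.277, 0.300 and 0.102 across genes, each above 0.1). Libraries of unlike number had correlations from -0.293 to 0.0208. With 3 libraries per stage these correlations are not independent of each other. No source says what a number stands for, and the reported values use no block.

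The genes described and the lists were chosen with earlier results of these data known. Named list genes were up to 3 called genes per direction and list with the largest log2 fold change and a mean of at least 5 CPM, genes whose exons overlap any of the 10, and the cell type markers given. DESeq2 1.42.0, limma-voom (limma 3.58.1), other scalings, filters and thresholds, a replicate block, removal of the length trend, and leaving out each library were run as alternatives. The computation was tested on simulated data. In these a much smaller share of genes was changed than was called here, so that they do not measure error rates of the present calls. The 5 list genes that were not matched were not analysed here, and no sequences are shown.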

Additional observations from a re-analysis of the deposited data

How the results depend on the processing

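Sod1 and cnc kept their direction and call under all 18 alternatives, Cat under 17, Trxr-1 under 15, Trx-2 under 13 and Sod2 under 12. Scaling by total counts left 3 of the genes called, 2 of them higher, and Sod2 (0.29), Trx-2 (0.25) and Trxr-1 (0.17) were not called. An FDR below 0.01 also left 3, 2 of them higher, without Sod2 (0.49), Trx-2 (0.45) and Trxr-1 (0.37). The requirement of at least 2-fold left 2, 1 of them higher, and removed Cat (0.85) as well as those 3. It left 1580 of all genes (621 higher, 959 lower) and 19 pathway genes (11 higher). With the length trend removed Sod2 was at 0.23 (FDR = 0.091), and at 0.23 (FDR = 0.048) with the replicate block added, while Keap1 was at 0.045, and at 0.031 with the block. The replicate block alone changed no call of the 7 tested genes (Keap1 -0.27, FDR = 0.15) and gave 4736 called genes in all, against 4264 without it. Leaving out 1 library at a time gave 4 to 6 called genes, 3 to 5 of them higher, with Sod2 at 0.36 to 0.62, Trx-2 at 0.31 to 0.54 and Keap1 at -0.44 to -0.08. Depth limits Sod3, Duox and Nox, whose log2 ratios of mean CPM were -0.47, 0.64 and -1.02. With each library left out, the ratio lay between -0.64 and -0.18 for Sod3 and between 0.11 and 1.03 for Duox. Nox lay between -1.41 and -0.39, with the edgeR log2 fold change used where the fit tested it. Its -1.41, without larval replicate 2, was such a value (FDR = 0.058, edgeR) and was not called.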

Other observations

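The larval libraries differed among themselves for several of these genes, and not for these alone. Leaving out larval replicate 2 raised the number of all called genes from 4264 to 4552. Leaving out any other library lowered it, to 3251 to 3906. Larval replicate 3 was highest and larval replicate 2 lowest for Jafrac1 (63.0, 48.8 and 108 CPM in larval replicates 1, 2 and 3), GstE1 (54.4, 42.3 and 97.5 CPM), GstE6 (10.8, 7.72 and 24.3 CPM), Gclc (21.4, 17.1 and 34.7 CPM) and Nox (17, 4 and 24 counts), of which all but the untested Nox were called lower in prepupae. The reverse order, with larval replicate 2 highest and larval replicate 3 lowest, held for many genes called higher in prepupae. Among them were Prx2540-2 (16.6, 25.8 and 9.14 CPM), Eip71CD (140.6, 223 and 80.3 CPM), Sod1 (296, 367 and 253 CPM) and Cat (957, 1101 and 823 CPM). Sod2 (74.4, 89.8 and 73.2 CPM), GstD1 (1435, 1473 and 998.7 CPM) and GstO3 (760, 947 and 557 CPM) had it too. Trx-2 and Trxr-1, also called higher, did not. The first order was also that of the crystal cell markers lz (1.67, 1.23 and 3.39 CPM), peb (3.23, 1.82 and 5.79 CPM), PPO1 (918, 832 and 1359 CPM) and PPO2 (1520, 1212 and 1840 CPM). It was shared by the plasmatocyte markers Hml (5161, 3206 and 6361 CPM), eater (1161, 739.5 and 1342 CPM), NimC1 (237, 197 and 258 CPM), Sr-CI (639, 417 and 897 CPM) and Col4a1 (6287, 4443 and 6395 CPM). Other plasmatocyte markers differed. Pxn (5438, 4303 and 5171 CPM) and vkg (4331, 2996 and 4318 CPM) were highest in larval replicate 1, as was cnc (249.9, 159 and 218 CPM). The marker crq (153, 164 and 157 CPM) was highest in larval replicate 2. These genes were picked after their values were seen, and no test was made.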
